A study of Mus musculus with 16 samples.

Results

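The comparison described here sets E14TG2a mouse embryonic stem (ES) cell cultures at passage 21 (P21) against cultures of the same line at passage 20 (P20). It was chosen by the passage given for each array, and it holds 8 of the 16 arrays of the series, 4 at P21 and 4 at P20. In the series, HPRT- E14TG2a ES cells received different levels of Nodal/Activin signaling, and each treatment was carried out at passages 20, 21, 23 and 24. The line was kept in serum with LIF and was split every other day. All cultures, at every passage, were first held for 6 h in medium with 20% KSR, a serum replacement, and 10 µM SB-431542 (SB), a blocker of the kinase receptors through which Activin and Nodal signal. They then spent 18 h in KSR medium with 25 ng/ml Activin, 10 µM SB, DMSO carrier at a dilution of 1 in 5000, or no addition (KSR). Each culture gave total RNA for a single Illumina MouseRef-8 BeadChip array.

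Each passage therefore holds 1 array of each treatment, and P21 was compared with P20 within treatments (n = 4 pairs). The study took the 4 passages as its biological replicates, of 1 cell line. No source used here says whether the 4 cultures of a passage came from separate flasks, so a p-value sets the mean of the 4 treatment-wise differences against a spread that is pooled over all 16 arrays and does not measure separate cultures of a passage. Passage number, the day of culture and the handling of the RNA and arrays cannot be told apart in this design, because a passage was sampled 1 time.

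Mammalian cells that run short of amino acids, or that meet misfolded protein or oxidants, slow their translation by phosphorylating the initiation factor eIF2α. The transcription factor ATF4 is then made in larger amounts and switches on genes of amino acid synthesis, amino acid uptake, tRNA charging and stress signaling, a program known as the integrated stress response. ATF4 and its partners bind C/EBP-ATF response elements (CARE). Mouse ES cells are known for a heavy use of amino acid and one-carbon metabolism, which several of these genes serve.

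Some named genes lower at P21 with a CARE-like match in their start region are shown first, because many of the falls described below are of known ATF4 targets. Windows of 30 bases are printed 5′ to 3′ on the strand of the gene, from RefSeq start regions of the build GRCm38.p6. Capitals mark TGATGNAA or its reverse complement, searched on both strands from 250 bases before to 50 after the start. Asns, an ATF4 target that did not pass the test, is shown beside them.
Chac1, chr2:119351038-119351067, plus strand, 193 bases upstream: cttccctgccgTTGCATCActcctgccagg
Nupr1, chr7:126625562-126625591, minus strand, 110 bases upstream: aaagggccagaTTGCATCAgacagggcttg
Trib3, chr2:152344028-152344057, minus strand, 15 bases downstream: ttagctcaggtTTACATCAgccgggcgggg
Vldlr, chr19:27216809-27216838, plus strand, 200 bases upstream: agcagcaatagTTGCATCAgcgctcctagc
Slc1a4, chr11:20332699-20332728, minus strand, 4 bases upstream: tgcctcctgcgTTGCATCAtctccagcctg
Herpud1, chr8:94386306-94386335, plus strand, 112 bases upstream: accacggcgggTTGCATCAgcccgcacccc
Slamf9, chr1:172475269-172475298, plus strand, 80 bases upstream: gagacagtggcTTACATCAtctgactgtta
Asns, chr6:7693214-7693243, minus strand, 23 bases upstream: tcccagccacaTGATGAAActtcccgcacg

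The match was held by 11 of the 71 genes called lower at P21 for which a start region was given (15.5%), by 0 of 47 genes called higher, and by 3.67% of the 12848 measured genes with a start region. The 11 include Tnnt1, described below, and Serpinf1 and Catsperz, named outside the rule for their match. Their windows are not printed. Within the list of ATF4 and integrated stress response genes, 6 of 22 start regions held it. These are matches of letters, not measured binding sites.

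P21 and P20 cultures differed at few probes. In these bulk cultures, fewer cells of a kind and less RNA per cell cannot be told apart. Of 24606 probes, 217 passed an adjusted p of 0.05 with limma (0.882%), 94 higher and 123 lower at P21 (0.382% and 0.5%), and 3090 had an unadjusted p under 0.05. Fewer probes passed than in the steps after it, where 660 passed between P23 and P21, which are not adjacent (2.68%), and 703 between P24 and P23 (2.86%). Over all probes the SD of the mean log2 difference was 0.125 for P21 against P20, 0.143 for P23 against P21 and 0.138 for P24 against P23. The P21 arrays enter the first and the second of these steps.

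Among the 217 called probes, 214 moved in the same direction in the Activin, SB, DMSO and KSR cultures, against 17.6% of all probes. The 4 P21 arrays lay wholly to one side of the 4 P20 arrays for 187 of them, against 5.56% of all probes. The test favours probes whose 4 treatment-wise differences were alike, so both counts follow in part from the calling. The largest fall was 2.08-fold, the largest rise 1.61-fold, and the median size of a called change 1.33-fold. Changes over 1.5-fold were seen for 16 probes (0.065%), 11 lower and 5 higher at P21. The probe among them that did not pass was for Fbxw5, an F-box protein gene named after its values were seen. It read 8.38 with Activin, 9.31 with SB, 9.13 with DMSO and 7.0 in KSR medium at P21, and 6.72, 6.96, 9.59 and 6.54 in the same order at P20 (log2 intensity, adjusted p = 0.266).

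The count of called probes depended on single arrays. It was 78 without the SB array of P21 and 74 without the SB array of P20. It was 127 without the Activin array and 128 without the DMSO array of P21, 112 without the Activin array and 102 without the KSR array of P20, and 228 without the KSR array of P21. With only the 8 arrays of P21 and P20 in the fit, 47 probes passed, all of them among the 217.

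**Figure D1:**
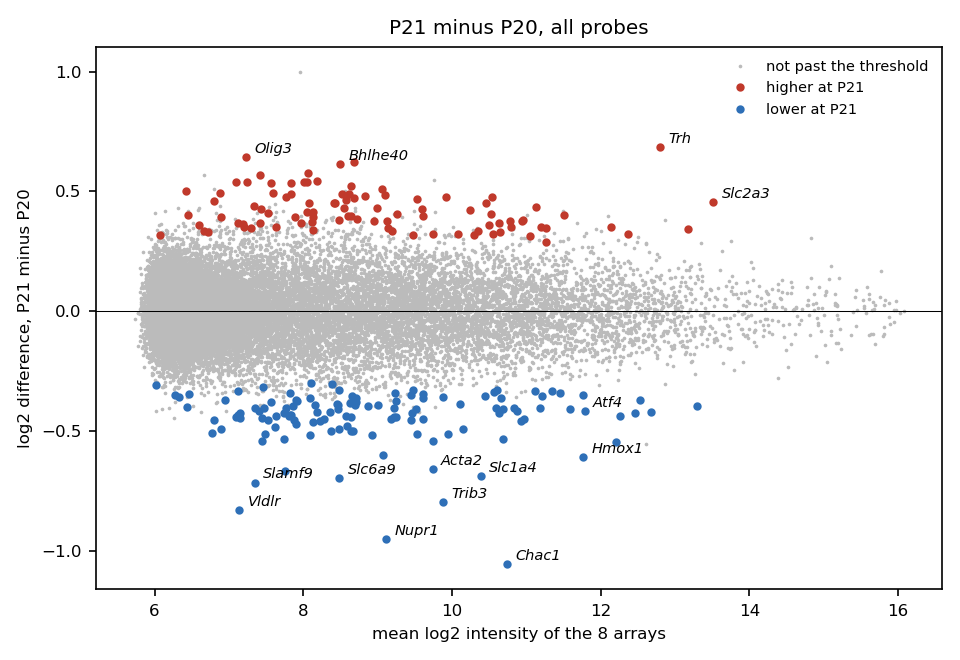
Log2 difference between P21 and P20 (y axis) against mean log2 intensity (x axis) for all 24606 probes, with probes past the adjusted p of 0.05 in colour. Most points lie near 0, and the called falls reach further from 0 than the called rises, led by Chac1 at -1.06.

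The arrays themselves were alike. The mean intensity lay between 486 and 669 at P21, with the KSR array the dimmest of the series, and between 607 and 653 at P20. Probes above background numbered 9816 to 10482 per array at P21 and 9900 to 10269 at P20. Arrays of the same treatment correlated between P21 and P20 with r from 0.9925 to 0.9937. All 7 ES cell markers examined were above background and 0 passed the test. Of 8 fibroblast markers examined for feeder cells, 7 were above background on no array, among them Col1a1, Col3a1 and Dcn, and their summed intensity was 109 to 124 at P21 and 109 to 122 at P20.

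Of the 41 gene lists examined, that of the ATF4 program held the most genes lower at P21, and also the most measured genes. In shorter lists, 2 of 9 histone genes and 2 of 9 post-implantation epiblast genes were lower. The lists and their members were chosen with earlier results of these data known, so their shares are descriptions. Of 24 measured genes on the list of ATF4 and integrated stress response genes, 7 were lower at P21 and 0 were higher. That is 29.2% of the list lower, against 0.557% of the 15967 genes measured, of which 0.463% were higher. These shares of all genes stand beside the counts of every list below. The other 17 did not pass, and 15 of these had a negative log2 difference, as did 50.5% of all genes measured. The median of the list was -0.23 (log2), against -0.0018 over all genes, and by treatment the median was -0.24 with Activin, -0.22 with SB, -0.21 with DMSO and -0.23 in KSR medium.

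Chac1, which encodes an enzyme that breaks down glutathione, showed the largest fall. Its log2 intensity at P21 was 10.21 with Activin, 10.18 with SB, 10.38 with DMSO and 10.10 in KSR medium, against 11.43, 11.25, 11.24 and 11.17 for the same treatments at P20. The highest P21 array was thus below the lowest P20 array, and the fall was 2.08-fold (log2 change -1.06, SE 0.09, adjusted p = 2.98e-06 with limma).

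Nupr1, which encodes a small stress-induced chromatin protein, read 8.29, 9.24, 8.63 and 8.39 at P21 (Activin, SB, DMSO and KSR, the order used from here on) and 9.61, 9.90, 9.50 and 9.34 at P20. All P21 arrays were lower, with SB the highest of its passage at both, and the fall was 1.93-fold (adjusted p = 0.000661). Trib3, a pseudokinase that binds ATF4 and dampens the response, read 9.41, 9.78, 9.49 and 9.26 at P21 and 10.21, 10.50, 10.19 and 10.23 at P20, again without overlap (1.74-fold lower, adjusted p = 4.54e-05). The other probes of Trib3 were lower as well, with log2 changes of -0.48 (adjusted p = 0.0258) and -0.15 (adjusted p = 0.68).

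Atf4 itself was lower by less. It read 11.58, 11.70, 11.51 and 11.52 at P21 and 11.99, 12.01, 12.05 and 11.92 at P20, a fall of 1.34-fold (log2 change -0.42, SE 0.07, adjusted p = 0.0076). No P21 array reached the lowest P20 array. A dimmer Atf4 probe changed by -0.22 and did not pass (adjusted p = 0.323), and with only the 8 arrays in the fit the adjusted p of the first was 0.0616. The arrays measure mRNA, whereas ATF4 is known to be regulated mainly through its translation.

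Mthfd2, a mitochondrial enzyme of one-carbon metabolism, read 11.91, 12.06, 11.89 and 11.88 at P21 and 12.52, 12.53, 12.37 and 12.50 at P20 (1.46-fold lower, adjusted p = 0.00242). Cth, which makes cysteine from cystathionine and is named here after its values were seen, read 8.07, 8.22, 7.83 and 7.89 at P21 and 8.66, 8.33, 8.39 and 8.45 at P20 (1.37-fold lower, adjusted p = 0.0224). The call for Cth was lost without the Activin, DMSO or KSR array of P21 or the Activin or KSR array of P20, where the highest adjusted p was 0.101. Vldlr, a lipoprotein receptor gene, read 6.83, 7.0, 6.78 and 6.30 at P21, above background on 0 of 4 arrays, and 7.18, 7.86, 7.68 and 7.51 at P20, above background on 3. Its fall was at least 1.32-fold when the dim arrays were set to the lowest level above background (adjusted p of the fitted change = 0.000374). The 3 other Vldlr probes were not above background. Across these 7 genes, the 28 treatment-wise differences were all negative, between -0.11 and -1.32, which a call makes likely.

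**Figure D2:**
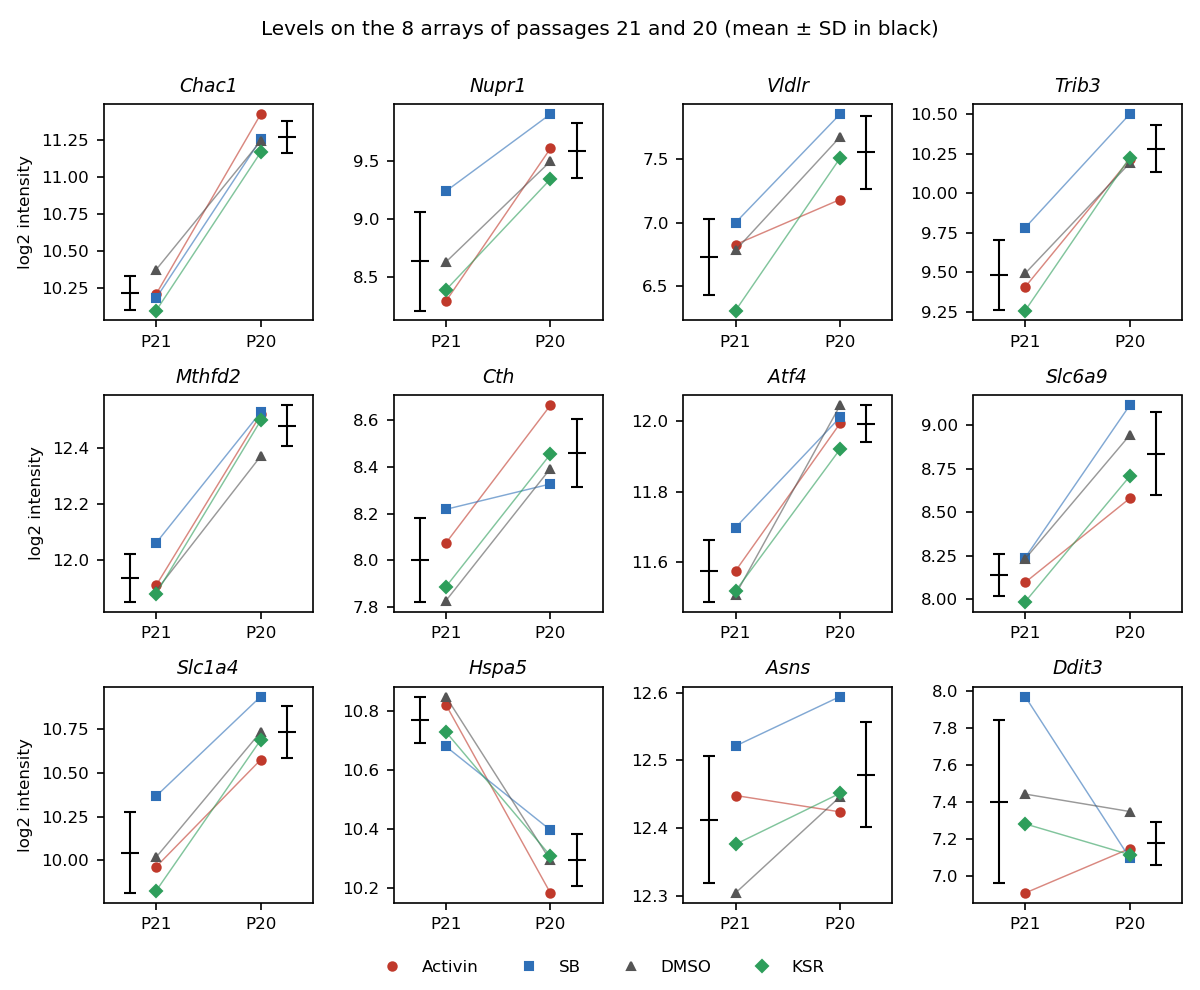
Log2 intensity (y axis) of 12 stress, transporter and ER chaperone genes on the 4 P21 arrays (left in each panel) and the 4 P20 arrays (right). Lines in the colour of the treatment join its arrays, and black marks show the mean and SD. Chac1, Nupr1, Trib3 and Atf4 lie lower on every P21 array, Hspa5 lies higher, and Asns and Ddit3 overlap between the passages.

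Several well-known members of the program did not pass. Asns, asparagine synthetase and a standard reporter of amino acid shortage, read 12.45, 12.52, 12.30 and 12.38 at P21 and 12.42, 12.59, 12.45 and 12.45 at P20, with the passages overlapping (log2 change -0.07, adjusted p = 0.78). Ddit3, which encodes the pro-apoptotic factor CHOP, had a log2 change of 0.22 and was above background on 3 arrays of P21 and 1 of P20 (adjusted p = 0.489). For the serine synthesis genes Phgdh and Psat1 the changes were -0.08 and -0.12 (adjusted p = 0.766 and 0.603). Stc2, a secreted stress protein, changed by -0.30 without overlap between the passages but missed the threshold (adjusted p = 0.054). Phgdh, Psat1 and Stc2 are members of the list outside the rule by which genes were named.

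The passages after P21 were used as a yardstick, since P24 and P23 share no array with P21 and P20. Between P24 and P23, 11 of the 24 genes on the list were higher and 0 lower, where 1.71% of all genes were higher. Chac1 was 0.85 higher at P24 than at P23 on the log2 scale (adjusted p = 2.68e-05), Nupr1 1.10 higher (6.08e-05), Vldlr 1.18 higher (2.91e-06) and Trib3 0.51 higher (0.00196). For Mthfd2 and Atf4 the differences were 0.15 and 0.25 and did not pass (0.385 and 0.0675). Asns, which did not pass between P21 and P20, was 0.35 higher at P24 than at P23 (0.0127).

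The change from P20 to P21 was also tested against the change from P23 to P24. This difference passed for 185 of all probes (0.752%) and for 12 of the 24 genes of the list, all 12 with a negative sign, as for 0.633% of all genes. Among the 12 were all 7 genes that were lower at P21, whose fall is itself a term of the tested difference. The level of Chac1 was 11.27 ± 0.11 at P20, 10.22 ± 0.12 at P21, 11.36 ± 0.09 at P23 and 12.21 ± 0.16 at P24 (log2, mean ± SD, n = 4 treatments). Nupr1 stood at 9.59 ± 0.24, 8.64 ± 0.43, 9.68 ± 0.13 and 10.78 ± 0.22, and Atf4 at 11.99 ± 0.05, 11.58 ± 0.09, 11.92 ± 0.11 and 12.17 ± 0.11, at the same passages. All 7 genes had their lowest mean at P21 and their highest at P24. Over the whole list, 17 of 24 genes were lowest at P21 and 20 were highest at P24. The same shares over all genes were not computed, so these counts describe the list alone.

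**Figure D3:**
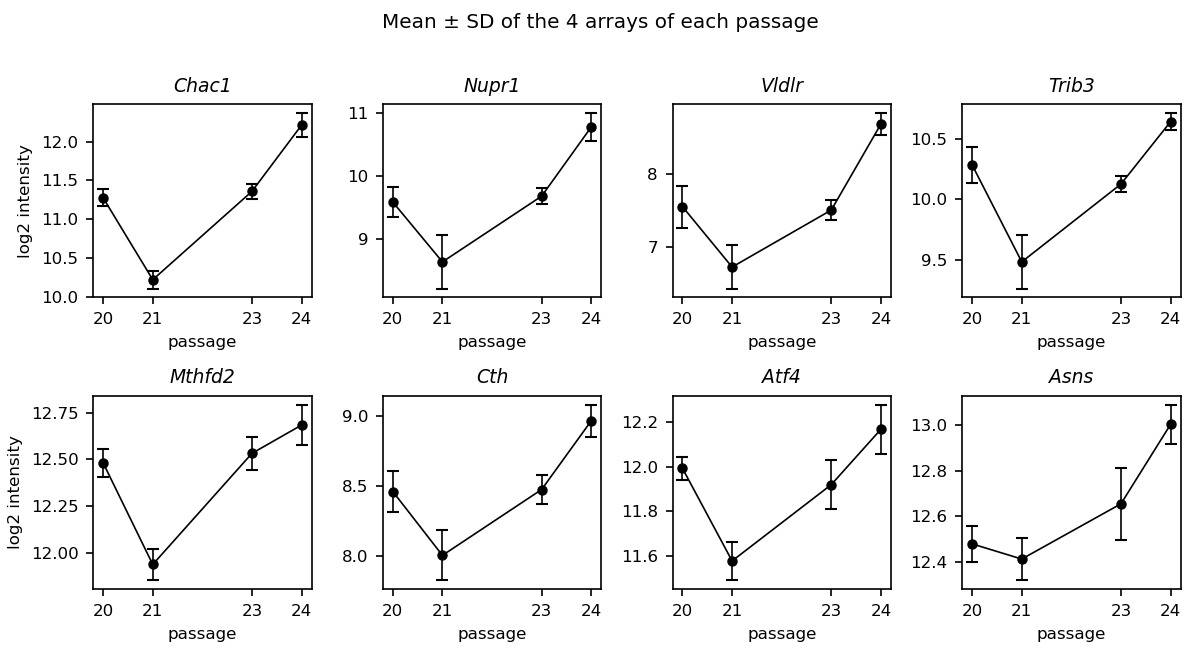
Log2 intensity (y axis) of 8 ATF4-linked genes at P20, P21, P23 and P24 (x axis), as the mean of the 4 treatments with the SD. The 7 genes lower at P21 dip there and are highest at P24, while Asns changes little between P20 and P21 and is highest at P24.

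Amino acid transporters split in direction. Of 16 listed and measured, 3 were lower and 1 was higher at P21, with a median of -0.07. The transporter gene Slc6a15, outside the list and named after its values were seen, was 1.28-fold higher (adjusted p = 0.0205). That call was lost without 5 of the 8 arrays in turn, and its passages overlapped. Slc6a9, the glycine transporter GlyT1, read 8.10, 8.24, 8.23 and 7.98 at P21 and 8.58, 9.11, 8.94 and 8.71 at P20 (1.62-fold lower, adjusted p = 0.00033). Slc1a4, which carries alanine, serine and cysteine, read 9.96, 10.37, 10.02 and 9.83 at P21 and 10.58, 10.94, 10.73 and 10.69 at P20 (1.61-fold lower, adjusted p = 0.00033). Both genes were lower on every P21 array than on any P20 array.

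Slc7a5, the large neutral amino acid transporter LAT1, was 1.34-fold lower, at 12.41, 12.35, 12.51 and 12.61 at P21 and 12.78, 12.97, 12.94 and 12.87 at P20 (adjusted p = 0.0118). Slc6a6, a taurine transporter, was 1.28-fold higher, at 12.22, 12.45, 12.24 and 12.34 at P21 and 11.93, 12.02, 11.99 and 11.90 at P20 (adjusted p = 0.0188). The passages did not overlap for either gene. Without the SB array of P21 or that of P20 neither call held, with adjusted p between 0.0595 and 0.0796, and the call for Slc6a6 was also lost without the KSR array of P20 (0.0818). Slc7a11, the cystine transporter and a known ATF4 target, was above background on no array of either passage.

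Of the 7 listed aminoacyl-tRNA synthetases that were measured, all had a negative difference (median -0.14), as did 50.5% of all genes measured, and 1 passed. Aars, which charges tRNA with alanine, read 13.03, 13.02, 13.12 and 13.21 at P21 and 13.30, 13.55, 13.65 and 13.47 at P20 (1.32-fold lower, adjusted p = 0.016). Its call was lost without the SB or DMSO array of either passage (highest adjusted p 0.0783). The valine enzymes Vars and Vars2, outside the list and named after their values were seen, were lower by log2 changes of -0.41 and -0.39 (adjusted p = 0.0188 and 0.0401), calls lost without 5 and 7 of the 8 arrays in turn. Start regions of 5 of 6 listed synthetases held the CARE-like match.

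Chaperones of the endoplasmic reticulum (ER) fold secreted proteins, and their genes are induced when misfolded protein builds up there. Of 18 ER chaperone and unfolded protein response genes, 2 were higher and 1 was lower at P21. Hspa5, which encodes the ER chaperone BiP, read 10.82, 10.68, 10.85 and 10.73 at P21 and 10.18, 10.40, 10.29 and 10.31 at P20, with no overlap (1.39-fold higher, log2 change 0.48, SE 0.09, adjusted p = 0.011). Hsp90b1, an ER chaperone of the HSP90 family, was higher by 0.32 on the log2 scale (adjusted p = 0.0469), a call that was lost when any one of the 8 arrays was left out. Herpud1, a membrane protein of ER-associated degradation that both ATF4 and ATF6 are known to induce, was 1.36-fold lower, at 8.08, 7.89, 8.09 and 8.14 at P21 and 8.43, 8.47, 8.44 and 8.66 at P20 (adjusted p = 0.0075, and 0.053 with only the 8 arrays in the fit). Xbp1 changed by -0.13 and did not pass. Of 13 cytosolic heat shock genes, 0 passed, with 6 differences negative and 7 positive. Near misses, named after their values were seen, were Cryab at -0.355 (adjusted p = 0.0504) and Hsp90aa1 at 0.55 (0.0571). For Hsp90aa1 the passages did not overlap.

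Oxidative and metal stress genes gave 1 call. Hmox1, heme oxygenase, a target of the oxidant sensor NRF2, read 11.32, 11.40, 11.40 and 11.70 at P21 and 12.07, 12.04, 12.10 and 12.03 at P20, so that all P21 arrays were lower (1.52-fold, adjusted p = 0.00242). It was the only one of 18 NRF2 and oxidative stress genes to pass. The metallothionein Mt1 read 11.53, 13.41, 12.19 and 12.21 at P21 and 12.57, 13.30, 12.85 and 12.83 at P20. Its SB cultures were the highest at both passages and differed by 0.11 in the opposite direction to the other 3 pairs, and the mean change of -0.55 missed the threshold (adjusted p = 0.0563). Without the SB array of P21 Mt1 passed (log2 change -0.77, adjusted p = 0.00108). Mt2 changed by -0.37 (adjusted p = 0.199).

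Genes of nutrient supply showed scattered rises. Slc2a3, the glucose transporter GLUT3, read 13.68, 13.92, 13.73 and 13.64 at P21 and 13.03, 13.47, 13.32 and 13.33 at P20, without overlap (1.37-fold higher, adjusted p = 0.0049, and 0.0546 with only the 8 arrays in the fit). It was the single call among 16 glycolysis and glucose uptake genes, and Ldha changed by 0.21 (adjusted p = 0.227). Scd1 and Scd2, desaturases that make monounsaturated fatty acids, were 1.28-fold and 1.27-fold higher (adjusted p = 0.0188 each), the 2 calls among 13 fatty acid synthesis genes. Each of the Scd calls was lost without 5 of the 8 arrays in turn, the SB arrays of both passages included (adjusted p up to 0.0815). Dhcr7, the enzyme of the last step of cholesterol synthesis, was 1.32-fold higher (adjusted p = 0.0125) as 1 of 20 genes of that pathway, while Hmgcs1 changed by 0.08. Without the SB array of P21 or the Activin array of P20 the adjusted p of Dhcr7 was 0.0619 and 0.0546.

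Bhlhe40, a hypoxia- and nutrient-responsive repressor, read 8.86, 8.94, 8.61 and 8.79 at P21 and 8.58, 7.62, 8.32 and 8.23 at P20. All P21 arrays were higher, but the SB pair differed by 1.32 and the others by 0.28 to 0.56 (mean 1.53-fold, adjusted p = 0.0245, and 0.125 without the SB array of P20). The other 17 hypoxia genes did not pass. Of 18 autophagy and lysosome genes, 14 had a positive difference, where 50.5% of all genes measured had a negative one. The median was 0.16 (0.23 with SB and 0.04 with Activin). Only Lamp2, a lysosomal membrane protein gene, passed (1.32-fold higher, adjusted p = 0.0314, lost without 6 of the 8 arrays in turn). Another Lamp2 probe changed by 0.17 and did not pass (adjusted p = 0.442). Of 13 genes that respond to nutrient withdrawal through MondoA and FoxO factors, 0 passed. Zmat3, a p53 target, was 1.30-fold higher (adjusted p = 0.0374, lost without 6 arrays in turn), whereas Cdkn1a, the p53 target that arrests the cell cycle, changed by -0.07.

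**Figure D4:**
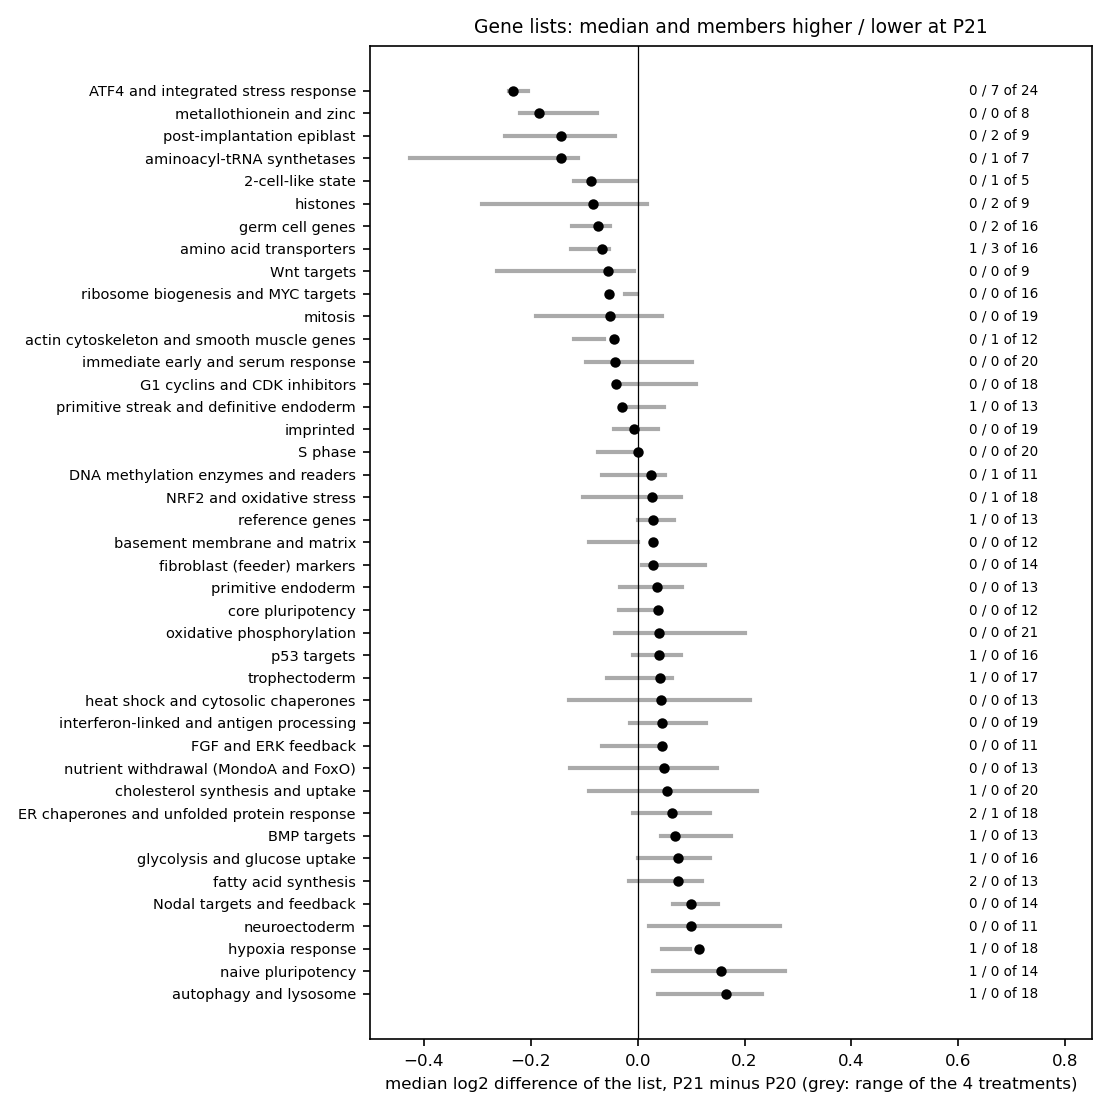
Median log2 difference between P21 and P20 for each of 41 gene lists (dots), with a grey line for the range of the medians within the 4 treatments and text for the numbers higher and lower of those measured. The ATF4 list, with a median of -0.23 and 7 of 24 lower, is the furthest below 0 of the 41 lists.

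Of 12 core pluripotency genes, which hold the ES cell state, 0 passed. Pou5f1, which encodes Oct4, changed by 0.08 (adjusted p = 0.766) and Sox2 by 0.33 (adjusted p = 0.159, and 0.018 without the KSR array of P21). Another Sox2 probe changed by 0.11 (adjusted p = 0.612). Nanog read 13.18, 13.05, 13.19 and 12.82 at P21 and 12.69, 12.51, 12.71 and 12.81 at P20. Its Activin, SB and DMSO cultures were higher at P21, while the KSR cultures differed by 0.01, and the change of 0.38 missed the threshold (adjusted p = 0.0558). Without the KSR array of P21 Nanog passed (log2 change 0.49, adjusted p = 0.00918).

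Of 14 naive pluripotency genes only Tbx3, a T-box factor of the naive state, passed (1.26-fold higher, adjusted p = 0.0401, lost without 6 of the 8 arrays in turn). The median log2 difference of the list was 0.28 with SB and 0.12 with Activin, but 0.03 with DMSO and 0.05 in KSR medium. Of 9 post-implantation epiblast genes 2 passed, both lower, and the median was -0.25 with SB and -0.14 in KSR medium, but -0.05 with Activin and -0.04 with DMSO. Zic2, a zinc finger factor of the primed state, was 1.34-fold lower (adjusted p = 0.0188), and Dnmt3l, the cofactor of the de novo DNA methyltransferases, 1.29-fold lower (adjusted p = 0.0382). The call for Zic2 was lost without 5 and that for Dnmt3l without 7 of the 8 arrays in turn, with adjusted p up to 0.0863 and 0.15.

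Lefty1 and Lefty2, targets of the signal that the study varied, kept the same order of treatments at both passages. Lefty1, a feedback inhibitor of Nodal, read 13.46 with Activin, 7.34 with SB, 12.57 with DMSO and 12.22 in KSR medium at P21, and 13.34, 6.91, 12.06 and 12.03 at P20 (log2 change 0.32, adjusted p = 0.134). On the SB array of P20 Lefty1 was not above background. Lefty2 changed by 0.41 (adjusted p = 0.0587, and 0.0401 without the SB array of P21). With SB it read 6.56 at P21 and 6.49 at P20, neither above background, so its SB difference of 0.07 rests on unmeasured levels. Of 14 Nodal targets, 0 passed. Among 13 BMP targets only Id2 passed, an inhibitor of differentiation factors, at 8.61, 9.91, 8.51 and 8.61 at P21 and 8.09, 9.34, 8.11 and 8.0 at P20. Id2 was highest with SB at both passages and 1.44-fold higher at P21 over the 4 pairs (adjusted p = 0.00539), while Id1 changed by 0.01.

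Trh, which encodes thyrotropin-releasing hormone and was the largest of the called rises, read 14.02, 12.24, 13.53 and 12.78 at P21 and 13.11, 11.43, 12.60 and 12.68 at P20. Within treatments it was higher at P21 by 0.82 to 0.93 with Activin, SB and DMSO and by 0.10 in KSR medium (mean 1.61-fold, adjusted p = 0.00441). It was lowest with SB at both passages, and the P21 and P20 arrays overlapped. Olig3, a neural basic helix-loop-helix factor, read 7.22, 7.72, 7.66 and 7.58 at P21 and 6.62, 7.24, 6.85 and 6.89 at P20, where it was above background on 1 array only (1.56-fold higher, adjusted p = 0.000271). The Iroquois homeobox gene Irx3 read 7.99, 8.61, 8.25 and 8.57 at P21 and 7.64, 7.95, 7.78 and 7.74 at P20, without overlap (1.49-fold higher, adjusted p = 0.00441). Its neighbour Irx5, named after its values were seen, changed by 0.34 (adjusted p = 0.0426, lost without 7 of the 8 arrays in turn). Of 11 neuroectoderm list genes, 0 passed.

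The other largest rises were between 1.39-fold and 1.48-fold. They included Pdlim4, a PDZ and LIM domain protein of the actin cytoskeleton (adjusted p = 0.00242), Igdcc3, an immunoglobulin family membrane protein gene (0.00242), and Sfrp2, a secreted regulator of Wnt signaling (0.0118). Pdlim4 was above background on 4 arrays of P21 but on only 2 of P20. B3gat3, a glucuronosyltransferase of the proteoglycan linker, was above background on 4 arrays of P21 and 0 of P20 and was at least 1.28-fold higher (0.0105). Calls for Ikbip, Sfrp2, Zbtb10, Laptm4b, Obsl1, Ubp1 and Ywhaz were each lost without 2 to 6 of the 8 arrays in turn, with adjusted p up to 0.16. Another Ikbip probe changed by 0.02 (adjusted p = 0.957). Among the 15 largest rises, P21 and P20 did not overlap for 8, against 5.56% of all probes. As these rises were chosen among called probes, this count follows in part from the choice.

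All 15 of the largest falls were free of overlap, against 5.56% of all probes, which follows in part from how they were chosen. Besides the ATF4-linked genes and Hmox1 they included Slamf9, an immune receptor family gene, at 6.76, 7.47, 6.86 and 6.88 at P21, above background on 1 array, and 7.64, 7.85, 7.70 and 7.64 at P20 (1.64-fold lower, adjusted p = 0.000473). Edn2, an endothelin gene, read 7.15, 7.43, 7.61 and 7.50 at P21 and 7.80, 8.39, 8.24 and 7.91 at P20 (1.59-fold lower, adjusted p = 0.00242). Acta2, smooth muscle actin, read 9.37, 9.53, 9.39 and 9.36 at P21 and 10.10, 10.14, 10.19 and 9.87 at P20 (1.58-fold lower, adjusted p = 0.000609). Its means were 10.07, 9.41, 9.39 and 8.58 at P20, P21, P23 and P24, and it was the single call among 12 actin cytoskeleton and smooth muscle genes. The other Acta2 probes, at or near background, changed by -0.26 and 0.04.

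The remaining genes of this group had various known roles. Cryl1, a crystallin-related dehydrogenase gene, was 1.43-fold lower (adjusted p = 0.0076). Tcte3, an axonemal dynein light chain gene (adjusted p = 0.00242), Stag3, a meiotic cohesin subunit (0.00343), and Tnnt1, slow skeletal troponin T (0.00242), were 1.46-fold, 1.45-fold and 1.43-fold lower. Another Tcte3 probe, not above background, changed by 0.11. Dmrtc1c1, one of several near-identical genes that a probe may not tell apart, was 1.51-fold lower (0.00588). Of 16 germ cell genes, Tex19.2 and Rhox5 were lower (1.42-fold and 1.27-fold, adjusted p = 0.0118 and 0.0372). The call for Rhox5 was lost without 7 of the 8 arrays in turn, and that for Tex19.2 without the SB array of P21 or the SB or KSR array of P20 (highest adjusted p 0.139 and 0.0621). Of 9 histone genes, H2bc4 and H1f2 were lower (1.37-fold and 1.33-fold, adjusted p = 0.00857 and 0.0291), and histone probes can also read related copies. The call for H2bc4 was lost without the SB array of P20 (0.0506), and that for H1f2 without 6 arrays in turn.

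**Figure D5:**
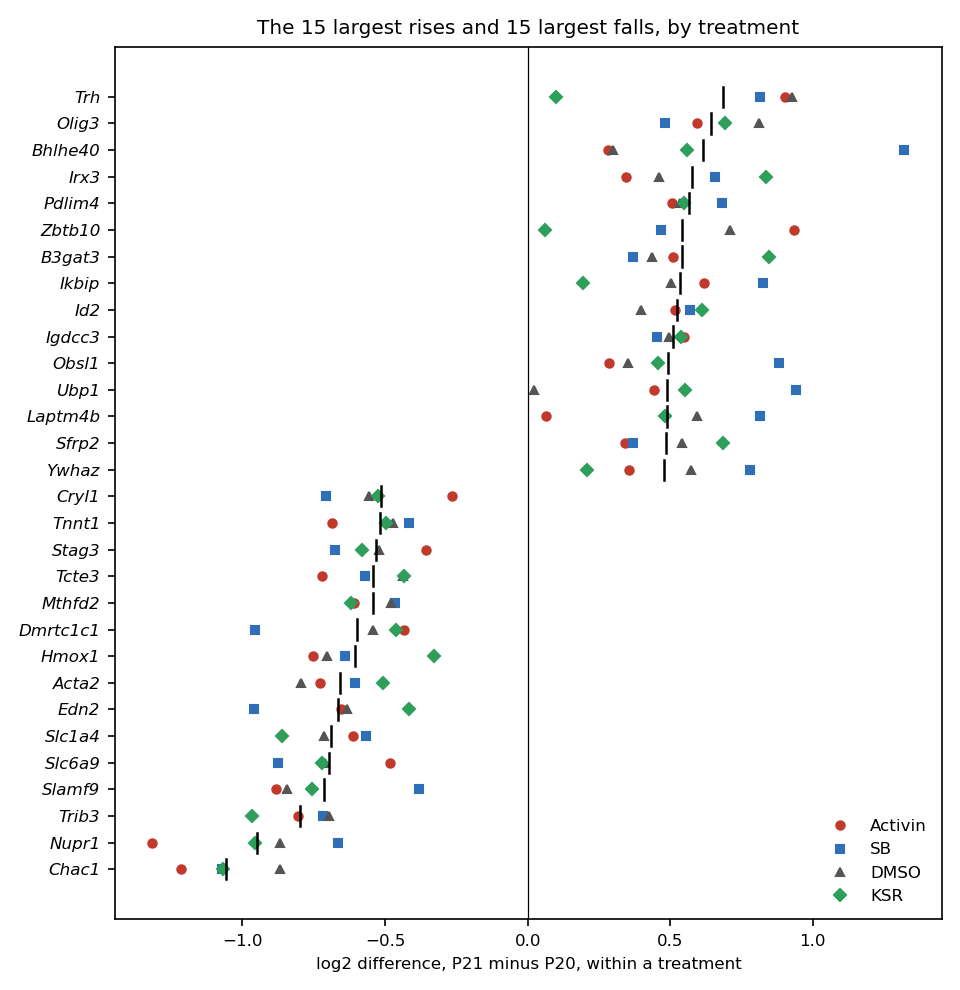
Log2 difference between P21 and P20 (x axis) within Activin, SB, DMSO and KSR cultures (markers) for the 15 largest called rises and the 15 largest called falls, with a black tick for the mean. All markers of a gene lie on one side of 0 by the rule of choice. The largest mean fall is that of Chac1 at -1.06, and the largest mean rise that of Trh at 0.69, whose KSR marker is at 0.10.

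In 19 of the 41 gene lists no gene passed, among them the S phase, mitosis, ribosome biogenesis, oxidative phosphorylation, interferon, immediate early, Wnt, imprinted and primitive endoderm lists. Over all lists, 36 of 581 measured genes passed, 15 higher and 21 lower at P21, where 1.02% of all genes passed in either direction. As the lists were chosen with earlier results of these data known, this contrast is a description. The trophectoderm gene Tfap2c, which ES cells also express, was 1.27-fold higher (adjusted p = 0.032, lost without 7 of the 8 arrays in turn), and the other 16 genes of its list did not pass. Other Tfap2c probes changed by 0.27 and 0.07 and did not pass (adjusted p = 0.249 and 0.81). The homeobox gene Cphx1, on the list of the 2-cell-like state, was 1.32-fold lower (adjusted p = 0.0115), a call lost without the SB array of either passage (highest adjusted p 0.058).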

How the data were processed

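The authors read the arrays into BeadStudio (version not given in the sources used here) and deposited non-normalized intensity, background-subtracted and unscaled, for 24606 probes, 26.8% to 28.7% of them below 0 on an array. The deposited normalized intensity, after the authors' cross-correlation normalization with a floor of 40, was used as an alternative.

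The non-normalized intensity of all 16 arrays was corrected by normexp (saddle-point, offset 50), which compresses changes of dim probes, quantile normalized and put on the log2 scale. A model of passage plus treatment (9 residual degrees of freedom, median residual SD 0.124) was fitted with limma 3.58.1 in R 4.3.3 (lmFit, eBayes, two-sided), with Benjamini-Hochberg adjustment over all probes, and was tested on simulated data. Treatment is the block that pairs the arrays: by the labels, every passage had an array of each treatment. The biological replicate numbers in the labels follow the passage, and were not used for pairing. The number of arrays limits the precision.

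Above background means an intensity over the 95th percentile of 1189 receptor-gene probes on that array. A gene is represented by its brightest probe (20980 probes carried 1 symbol, 1 several and 3625 none). Log2 levels are not comparable between probes. Genes were named as the 15 largest called rises and falls that moved the same way in all treatments with the brighter passage above background on 4 arrays, up to 4 called genes per list, and a set of stress, metabolic and pluripotency genes. Txnip and Hspa1b, of that set, are not analysed here. Genes outside the rule are named as such, apart from Xbp1 and the fibroblast markers. The members and the 41 lists were chosen with earlier results of these data known. Alternatives were the arrays fitted, the treatment term, 75th percentile scaling, cyclic loess, an intensity floor of 16, the authors' table, a background filter, a fold threshold, an intensity trend and leaving out arrays. The sequence of 1 start region is not reported here.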

Additional observations from a re-analysis of the deposited data

Results flagged for a closer look

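For 23 of the 67 named genes the change from P20 to P21 differed from the change from P23 to P24 by limma's test of that difference, given here as P21 minus P20 less P24 minus P23 on the log2 scale. The same test passed for 0.752% of all probes, but most named genes were chosen for the change at P21, which is a term of the tested difference, so the count is a description. Vldlr at P21 and B3gat3 at P20 were above background on 0 of 4 arrays, so their values below rest on levels that were not measured. Among genes linked to ATF4 it was -1.91 for Chac1 (adjusted p = 3.23e-08), -2.05 for Nupr1 (1.35e-06), -2.01 for Vldlr (1.02e-07), -1.31 for Trib3 (1.35e-06), -0.70 for Mthfd2 (0.00372) and -0.67 for Atf4 (0.00226). Among transporters it was -1.08 for Slc6a9 (4.88e-05), -0.88 for Slc1a4 (0.000476) and -0.49 for Slc7a5 (0.0385), and for the ER gene Herpud1 it was -0.86 (0.000293). Other negative values were -0.91 for Hmox1 (0.000819), -0.83 for Slamf9 (0.00231), -0.85 for Dmrtc1c1 (0.00427), -0.70 for Tcte3 (0.00427), -0.68 for Cryl1 (0.0095), -0.65 for Edn2 (0.0298), -0.56 for Zic2 (0.0289) and -0.54 for Tnnt1 (0.0201). Positive values were 0.89 for Tbx3 (0.000206), 0.65 for Igdcc3 (0.00427), 0.64 for B3gat3 (0.0298), 0.54 for Slc2a3 (0.0147) and 0.50 for Olig3 (0.0265).

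For Nanog and Trh the KSR pair lay far from the other 3 pairs. The KSR difference of Nanog was 0.0086, a gap of 0.878 of the range of its 4 differences, and that of Trh was 0.10, a gap of 0.867 of the range, both past Dixon's critical value for 4 values. With 71 sets of 4 values examined, chance sets about 1 in 20 apart.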

How the results depend on the processing

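Against 217 called probes for P21 minus P20, there were 47 with only the 8 arrays in the fit (also 47 when normalized on their own), 121 with 75th percentile scaling, 108 with intensities under 16 set to 16, 518 of 10200 probes above background, 15 with a 1.5-fold threshold, 363 with an intensity trend, and 46 to 228 when arrays were left out (55, 46, 60 and 99 without Activin, SB, DMSO or KSR at every passage). Without treatment as the block that pairs the arrays there were 167, with cyclic loess 195 and among the authors' normalized values 236 of 13253. Calls higher at P21 were 43.3%, against 33.1% with 75th percentile scaling (40 higher, 81 lower) and 33.3% with the floor of 16 (36 and 72). For P23 minus P21, 660 became 397 with the floor and 210, 226, 197 and 408 with these treatments left out in turn, and 35.3% of calls were higher with 75th percentile scaling, against 49.4%. For P24 minus P23, 703 became 406 with the floor, 1321 above background and 244, 136, 193 and 243 with a treatment left out. For the difference of both steps, 185 became 106 with 75th percentile scaling, 384 above background and 74, 65, 64 and 45 with a treatment left out.

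Acta2, Chac1, Hmox1, Nupr1, Olig3, Slamf9, Slc1a4, Slc6a9 and Trib3 passed under each of the 22 alternatives, and Vldlr under the 21 in which its probe was tested, which leaves out the background filter. Mt1, Nanog and Lefty2, which did not pass, did so under 4 alternatives each (the background filter, the intensity trend and those without the P21 SB or KSR array or that treatment at every passage), with lowest adjusted p of 0.00108, 0.00918 and 0.0263, and Sox2 under 1 (0.018). With only the 8 arrays in the fit 28 of 53 named calls held. The ATF4 list kept a negative median in 21 of 21 alternatives (-0.33 to -0.19). Changes near 0 turned in sign for Slc7a11 (0.0109 without DMSO at every passage), Cdkn1a (0.0019 without the P20 Activin array, -0.1197 at the other extreme) and Id1 (-0.0986 without the P21 Activin array, -0.0222 and -0.0761 without the Activin or the DMSO array of P20, -0.096 and -0.0435 without Activin or DMSO at every passage, 0.079 at most with 1 array left out), none of which passed. The causes were not tested. Fold changes of probes near background are compressed, and differences of such probes may lie below what these arrays can show.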
